A study of Danio rerio with 12 samples.

Results

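Heat shock and unfolded protein response genes were followed in GFP-positive cells sorted from the trunks of zebrafish larvae that carry mpx:GFP, in which the promoter of the myeloperoxidase gene marks neutrophils. The set held 50 genes, taken by symbol from a list that was chosen with earlier results of these data known. All 50 had a row of their own among the 31351 entries of the count table. Of the 50, 44 passed the filter on low counts and were tested together with the rest of 8453 entries. The design crossed injury with drug, with 3 biological replicates in each of 4 groups: injured or uninjured larvae in DMSO, and injured or uninjured larvae in AMD3100. Injured larvae had the spinal cord cut through at 3 days post-fertilization and were sampled at 8 hours post-injury, while uninjured larvae were of the same age. AMD3100, an antagonist of the chemokine receptor Cxcr4, was given to larvae at 25 uM together with 0.1% DMSO from 4 to 8 hours post-injury, and the vehicle level of the DMSO groups is unknown here. Every group carries the transgene, and each library was made from 2500 to 4800 sorted cells of dissociated trunks. The number of larvae behind a replicate, and whether replicates came from separate clutches, are unknown here, so the p-values measure the spread between these libraries.

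Cells answer misfolded protein with separate programmes. In the cytosol, heat shock factor 1 (Hsf1) raises chaperones of the Hsp70, Hsp90 and Hsp40 families. In the endoplasmic reticulum (ER), the sensors Ire1 (gene ern1), Perk (eif2ak3) and Atf6 raise ER chaperones and the machinery that removes misfolded proteins, through the transcription factors Xbp1, Atf4 and cleaved Atf6. Perk is also one of the kinases of the integrated stress response, in which Atf4 and Chop (ddit3) raise genes such as chac1, trib3 and asns. In mice, Xbp1 and the ER stress pathway take part in the differentiation of some granulocytes, cells that fold large amounts of granule protein. Whether this holds for zebrafish neutrophils was not tested here.

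Library totals ranged from 655451 to 12173133 counts. The neutrophil genes mpx and lyz were present in every library, with group means of 1355 to 3533 CPM for mpx (counts scaled to a common library total with TMM factors). Of 12 macrophage markers, 2 had no count in any library, among them mfap4, and mpeg1.1 had group means of 3.38 to 9.33 CPM. For marco, group means ran from 2.55 CPM in uninjured DMSO to 12.5 CPM in injured AMD3100. The summed level of the 12 was 89.4 to 117 CPM in DMSO without injury and 58.8 to 105 with it. In AMD3100 it was 107 to 118 CPM without injury and 101 to 221 with it. The summed level of 17 skeletal muscle markers ranged from 1800 to 22644 CPM in DMSO without injury and 786 to 9327 with it, and from 12932 to 47838 CPM in AMD3100 without injury and 1306 to 12960 with it. Over 14 neutrophil markers the sums were 41168 to 54730 and 46656 to 61241 CPM in the uninjured DMSO and AMD3100 libraries, and 18066 to 23901 and 19429 to 28924 CPM in the injured ones. Single markers went both ways: of the 14, 3 rose and 3 fell with injury in DMSO (median log2 fold change 0.18), and 3 rose and 5 fell with AMD3100 (median -0.45). Mitochondrially encoded genes took 29.8% to 32.01% of counts in DMSO without injury and 19.0% to 26.8% with it, and 17.8% to 21.3% in AMD3100 without injury and 14.0% to 27.7% with it. The part of these differences in the results below was not tested. Replicate 1 of injured AMD3100 was the shallowest library, held 397 CPM of EGFP against 1326 to 1935 in the other libraries, and lay at 114.4 on the first principal component, where the others lay between -39.9 and 33.0. In sorted bulk samples, fewer cells of a type and less RNA per cell cannot be told apart.

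After injury, hsp90aa1.2, hspa4a and hspd1, which encode chaperones or their partners, rose in both treatments. In DMSO, these were the 3 of the 44 tested genes that rose and 0 fell, a share near the 5.19% of all 8453 tested entries that changed in either direction. With AMD3100, 4 rose and 1 fell, against 5.42% of all entries: the same 3 and the amino acid synthesis gene asns rose, and the glutathione-degrading enzyme gene chac1 fell. The median log2 fold change of the 44 genes was 0.14 in DMSO and 0.23 with AMD3100, beside -0.02 and -0.07 over all tested entries. The sign of the change was the same in both injury comparisons, which share no library, for 35 of the 44 genes, or 79.5%, and for 71.3% of all entries. The groups did not overlap upward for 10 genes and downward for 5 in DMSO, where 15.9% and 13.7% of all entries did so. With AMD3100 these counts were 9 and 5, and the shares of all entries were 10.5% and 14.0%.

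Among the cytosolic heat shock genes, hsp90aa1.2 had the largest rise of the tested members in both injury comparisons. It encodes an Hsp90-alpha chaperone, which completes the folding of kinases and receptors. Its level was 27.2, 16.8 and 9.995 CPM in uninjured DMSO replicates 1 to 3 and 98.3, 99.0 and 82.5 CPM in injured DMSO. It was 12.5, 12.7 and 10.5 CPM in uninjured AMD3100 and 61.7, 79.8 and 86.6 CPM in injured AMD3100. Each of the 6 injured libraries exceeded every one of the 6 uninjured libraries. The rise was 5.31-fold in DMSO (log2 fold change 2.41, SE 0.334, adjusted p = 0.00133) and 6.43-fold with AMD3100 (2.68, SE 0.333, adjusted p = 9.67e-04). These were the only member calls that held in all 7 other settings and with any of the 12 libraries left out.

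The other cytosolic Hsp90 genes did not pass the test. The constitutive hsp90ab1, an abundant Hsp90-beta, held 3939, 5056 and 4216 CPM in uninjured DMSO and 3226, 3110 and 3167 CPM in injured DMSO. It held 2715, 4396 and 4198 CPM in uninjured AMD3100 and 5926, 3403 and 3342 CPM in injured AMD3100. Its DMSO groups did not overlap, with the injured libraries lower, and its AMD3100 groups did (log2 fold changes -0.48 and 0.16, adjusted p = 0.377 and 0.804). The gene hsp90aa1.1, which in zebrafish is known for folding myosin in skeletal muscle, had group means of 4.56 to 7.52 CPM. The highest was in uninjured AMD3100, where the muscle markers also had their highest group mean. The uninjured groups overlapped, with 5.51 ± 5.24 CPM in DMSO and 7.52 ± 4.26 CPM in AMD3100 (SD, n = 3). The part of muscle in these levels was not tested. The neighbours hsp90aa1.1 and hsp90aa1.2 lie side by side in the RefSeq annotation. Joint entries that hold hsp90aa1.1 had 6 reads, and those that hold hsp90aa1.2 also had 6. The sources used here do not say how reads common to close paralogs were assigned.

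The share of Hsp90 reads does not depend on how libraries were scaled. Of the reads of hsp90aa1.1, hsp90aa1.2 and hsp90ab1 together, hsp90aa1.2 took 0.684%, 0.332% and 0.236% in uninjured DMSO and 2.95%, 3.08% and 2.53% in injured DMSO. With AMD3100 it took 0.457%, 0.288% and 0.249% without injury and 1.03%, 2.29% and 2.52% with it. Injured and uninjured libraries did not overlap in either treatment (exact two-sided permutation p = 0.1 for each, the smallest that 3 against 3 allows, 0.2 adjusted over 8 comparisons). As hsp90aa1.2 was called for injury on these same libraries, its shares are not separate support. Injured AMD3100 libraries lay below all injured DMSO libraries (exact two-sided permutation p = 0.1, adjusted 0.2). That separation was narrow: replicate 3 held 2.521% in injured AMD3100 and 2.535% in injured DMSO. Their exact 95% binomial intervals, 2.37% to 2.68% and 2.32% to 2.76%, overlapped. Replicate 1 of injured AMD3100, the shallow library, had an interval of 0.749% to 1.3796%. Such intervals cover counting error only. In level, hsp90aa1.2 overlapped between these groups, at 61.7 to 86.6 CPM in injured AMD3100 and 82.5 to 99.0 in injured DMSO. The abundant hsp90ab1, in the denominator, was higher in every injured AMD3100 library, at 3342 to 5926 CPM against 3110 to 3226. It did not pass the test (log2 fold change 0.41, adjusted p = 0.945). The lower share therefore does not show a lower level of hsp90aa1.2.

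**Figure D1:**
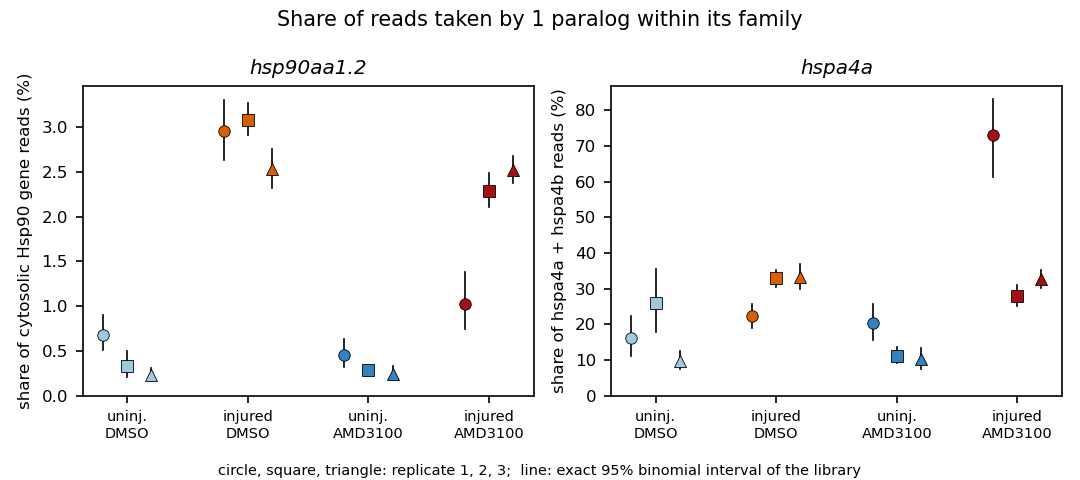
Share of hsp90aa1.2 among the reads of 3 cytosolic Hsp90 genes (left, percent) and of hspa4a among the reads of hspa4a and hspa4b (right, percent), for each library of the 4 groups with exact 95% binomial intervals. The hsp90aa1.2 share is at most 0.684% in uninjured libraries and at least 1.03% in injured ones; the hspa4a share of replicate 1 of injured AMD3100, 73.2%, stands apart from the other libraries.

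The Hsp110-type nucleotide exchange factor gene hspa4a, a partner of Hsp70, also rose with injury. It held 16.3, 19.8 and 9.63 CPM in uninjured DMSO and 46.5, 45.7 and 37.97 CPM in injured DMSO. It held 18.2, 9.04 and 11.01 CPM in uninjured AMD3100 and 72.9, 38.2 and 38.6 CPM in injured AMD3100. Injured libraries lay above uninjured ones in both treatments (log2 fold change 1.55, SE 0.373, adjusted p = 0.0252 in DMSO; 1.94, SE 0.372, adjusted p = 0.00766 with AMD3100). Dropping replicate 1 or 3 of uninjured DMSO, or any 1 of injured DMSO, ended the DMSO call (adjusted p = 0.0622 to 0.127), and thinning all libraries to the shallowest gave 0.83 (adjusted p = 0.407). The AMD3100 call was lost without uninjured AMD3100 replicate 2 and in a fit of the groups of that contrast alone (adjusted p = 0.0620 and 0.0510). Its paralog hspa4b did not pass the test (0.52 and -0.18, adjusted p = 0.498 and 0.860). The share of hspa4a in the reads of the pair was 9.85% to 26.0% in uninjured DMSO and 22.3% to 33.4% in injured DMSO, which overlap (exact two-sided permutation p = 0.2, adjusted 0.32). It was 10.2% to 20.4% in uninjured and 28.0% to 73.2% in injured AMD3100 (exact p = 0.1, adjusted 0.2).

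The abundant constitutive Hsp70 gene hspa8 held 8685, 4771 and 10220 CPM in uninjured DMSO and 5707, 6488 and 4239 CPM in injured DMSO. It held 7326, 4814 and 4848 CPM in uninjured AMD3100 and 5106, 5059 and 3928 CPM in injured AMD3100. The groups overlapped in both treatments and the gene did not pass the test (log2 fold changes -0.53 and -0.27, adjusted p = 0.371 and 0.682). The inducible hsp70l, the classical heat shock reporter of zebrafish, was low. In DMSO it held 4.35, 0 and 1.82 CPM without injury and 0.996, 1.95 and 1.92 CPM with it. In AMD3100 it held 0, 0.645 and 1.501 CPM without injury and 5.61, 4.74 and 2.46 CPM with it. The floor was set at 3 counts, which stood for 0.246 to 4.21 CPM depending on the library, and lower values rest on fewer counts. In injured AMD3100 the floors of replicates 1 to 3 were 4.21, 0.431 and 0.246 CPM. There, hsp70l was near the floor in replicate 1 and well above it in replicates 2 and 3. The AMD3100 groups did not overlap, with the injured libraries higher, but the gene did not pass (adjusted p = 0.161). Its close relatives hsp70.1, hsp70.2 and hspa8b were listed at 0 counts in all 12 libraries, and reads that these copies share may not have been counted.

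The Hsp40 genes dnaja1, dnajb1a and dnajb1b, whose proteins hand clients to Hsp70, had positive log2 fold changes of 0.74 to 0.99 in DMSO and 0.82 to 1.40 with AMD3100, and 0 of the 3 passed (smallest adjusted p = 0.117). The 3 injured DMSO libraries of dnajb1a, at 148 to 176 CPM, lay above the uninjured ones, at 85.05 to 111, and the gene passed when the DMSO groups were fitted by themselves. With AMD3100, dnajb1a in replicate 1 of the injured group was 44.9 CPM and the others 184 and 191; without that replicate the gene passed the threshold in this comparison. The regulator gene hsf1, with group means of 2.12 to 5.80 CPM, and the small heat shock protein gene hspb1, with 4.75 to 8.39 CPM, did not pass in either comparison, although the injured AMD3100 libraries of hsf1 lay below the uninjured ones. These injured libraries held 0.862 to 4.09 CPM of hsf1, and the floor of replicate 1 was 4.21 CPM. In all, the 12 cytosolic heat shock genes had 2 higher and 0 lower in each injury comparison, with median log2 fold changes of 0.63 and 0.72.

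Of the 3 chaperone genes of the mitochondrial matrix, 1 passed the test in each injury comparison. For each of the 3, the injured libraries lay above the uninjured ones of their treatment, as they did for 15.9% of all entries in DMSO and 10.5% with AMD3100. The chaperonin gene hspd1 (Hsp60), which folds imported proteins in a closed chamber, held 66.9, 52.7 and 37.3 CPM in uninjured DMSO and 115.9, 100.7 and 91.0 CPM in injured DMSO. It held 65.7, 45.5 and 60.8 CPM in uninjured AMD3100 and 115.0, 125.5 and 119.7 CPM in injured AMD3100. It rose 1.97-fold in DMSO (log2 fold change 0.98, SE 0.265, adjusted p = 0.0453) and 2.10-fold with AMD3100 (1.07, SE 0.264, adjusted p = 0.0308). The DMSO call was lost without 9 of the 12 libraries in turn, among them any injured DMSO replicate (adjusted p = 0.0521 to 0.177), with RLE factors (0.0588), without a filter (0.0633), with the replicate block (0.0550) and after thinning (0.342). The AMD3100 call was lost without any uninjured AMD3100 replicate or injured AMD3100 replicate 2 (adjusted p = 0.0557 to 0.145), in a fit of its own groups and after thinning (adjusted p up to 0.124). The lid gene hspe1 (Hsp10), which lies next to hspd1 in the RefSeq annotation, had group means of 38.6 ± 13.4 CPM in DMSO without injury and 62.7 ± 15.1 with it, and 47.1 ± 11.9 CPM in AMD3100 without injury and 88.9 ± 36.5 with it (SD, n = 3). Its log2 fold changes were 0.72 and 0.89 (adjusted p = 0.271 and 0.167). The mitochondrial Hsp70 gene hspa9, which pulls proteins through the import channel, had values of 0.66 and 0.42 (adjusted p = 0.121 and 0.337).

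**Figure D2:**
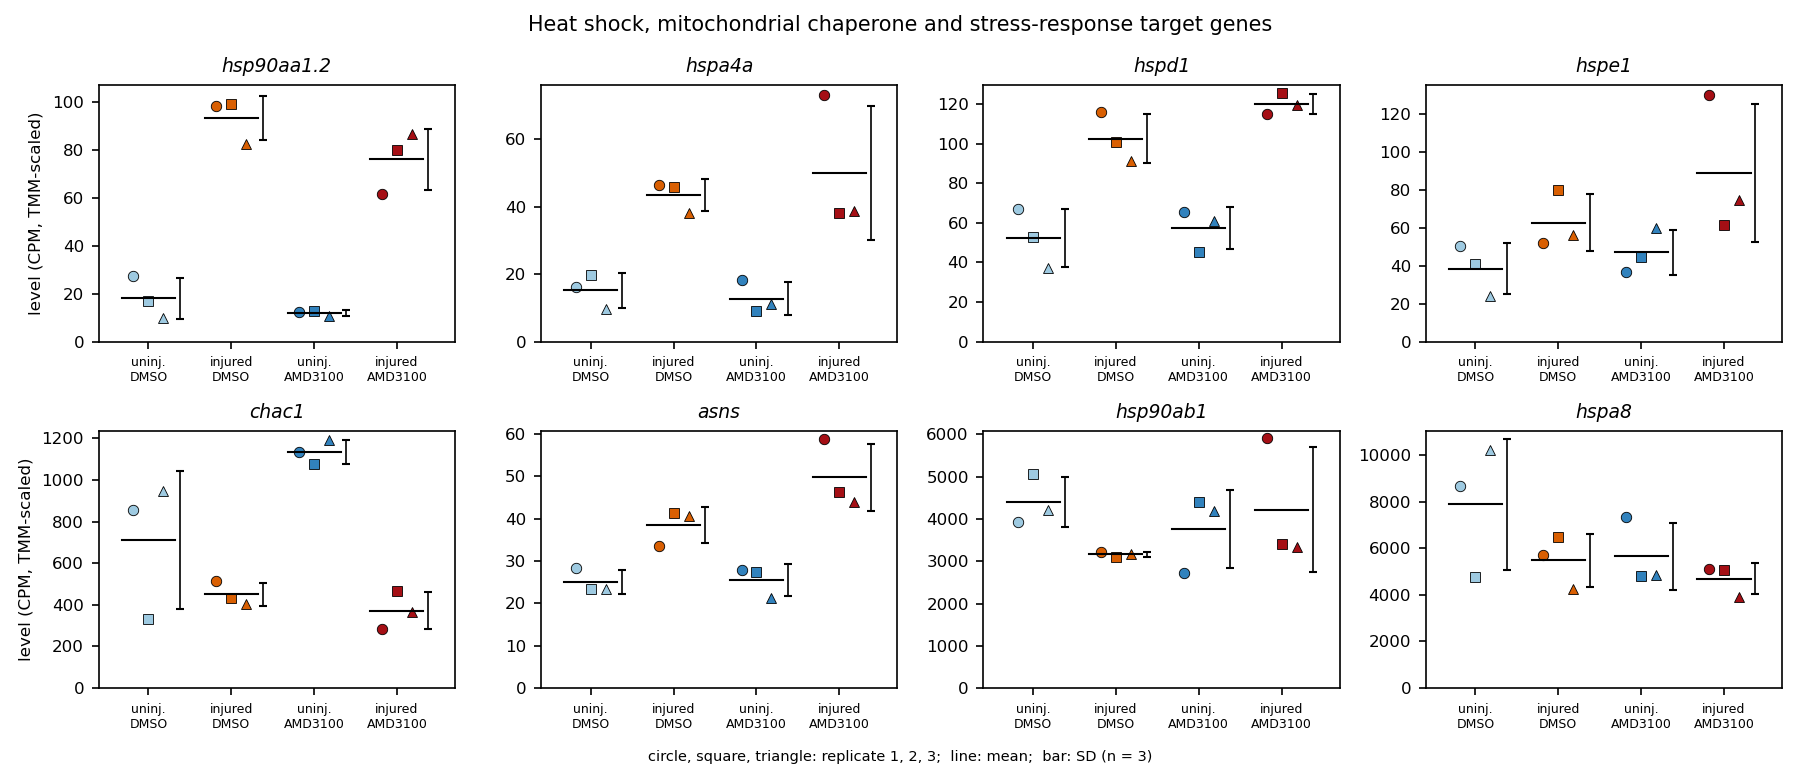
Levels in CPM (linear axis, TMM-scaled) of 8 chaperone and stress-response target genes in each library of the 4 groups, with the mean and SD of 3 replicates. For hsp90aa1.2, hspa4a, hspd1, hspe1 and asns the injured libraries lie above the uninjured ones of the same treatment; for chac1 the uninjured AMD3100 libraries, at 1079 to 1191 CPM, lie above all others.

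Targets of the integrated stress response went in different directions. The gene chac1, a target of Atf4 that breaks down glutathione, held 856, 331 and 946 CPM in uninjured DMSO and 513, 433 and 404 CPM in injured DMSO. It held 1135, 1079 and 1191 CPM in uninjured AMD3100 and 286, 466 and 366 CPM in injured AMD3100. The AMD3100 groups were far apart and the DMSO groups overlapped through uninjured DMSO replicate 2. With AMD3100 it fell by 1.60 on the log2 scale with injury, to a level 3.04-fold lower (SE 0.341, adjusted p = 0.0141). In DMSO the log2 fold change was -0.66 (adjusted p = 0.286), and the difference between the injury effects was -0.94 (SE 0.471, unadjusted p = 0.0643, adjusted p = 1.00). The AMD3100 call was lost without uninjured AMD3100 replicates 2 or 3 (adjusted p = 0.0502 and 0.0518).

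The pseudokinase gene trib3, a Chop target that restrains the Akt kinase, had group means of 179 ± 48.9 CPM in DMSO without injury and 111 ± 20.1 with it, and 190 ± 41.1 CPM in AMD3100 without injury and 89.5 ± 39.1 with it (SD, n = 3). Its log2 fold changes with injury were -0.70 and -1.05 (adjusted p = 0.267 and 0.0884). With DESeq2 it was past the threshold in the AMD3100 comparison. The asparagine synthetase gene asns went the other way, with 28.3, 23.4 and 23.4 CPM in uninjured DMSO and 33.5, 41.3 and 40.7 in injured DMSO. It held 28.0, 27.5 and 21.3 CPM in uninjured AMD3100 and 58.9, 46.4 and 43.96 in injured AMD3100. Injured libraries lay above uninjured ones in both treatments. The gene rose 1.92-fold with AMD3100 (log2 fold change 0.94, SE 0.254, adjusted p = 0.0440) and its value in DMSO was 0.62 (adjusted p = 0.184). The AMD3100 call was kept without injured AMD3100 replicate 3 and lost without any other library (adjusted p = 0.0510 to 0.175), and also without a filter, in a fit of its own groups, with the replicate block and after thinning (adjusted p = 0.0706 to 0.161). The phosphatase subunit gene ppp1r15a, which ends the response by reversing eIF2 phosphorylation, had 31 counts over all libraries and was not tested.

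None of the 7 sensor and transcription factor genes of the unfolded protein response passed the edgeR test with injury, and 6 of the 7 had negative values in each treatment. At an unadjusted p under 0.05, 1 did so in DMSO and 2 with AMD3100, where 1686 and 1670 of all 8453 entries did. Median log2 fold changes of these genes were -0.46 in DMSO and -0.59 with AMD3100. Over all 8453 entries, 4336 had negative values in DMSO and 4521 with AMD3100. The transcription factor gene xbp1, whose mRNA is spliced by Ire1, held 665, 703 and 645 CPM in uninjured DMSO and 312, 324 and 432 CPM in injured DMSO. It held 241, 512 and 430 CPM in uninjured AMD3100 and 303, 202 and 285 CPM in injured AMD3100. The uninjured DMSO libraries lay above all 9 others. The log2 fold change with injury was -0.91 in DMSO (SE 0.292, adjusted p = 0.0866) and -0.59 with AMD3100 (SE 0.292, adjusted p = 0.282). In DMSO, xbp1 was past the threshold with DESeq2 and when the DMSO groups were fitted by themselves. Counts of transcript ends do not show whether xbp1 was spliced.

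The Chop gene ddit3, a transcription factor linked to cell death under lasting ER stress, held 22.8, 27.1 and 24.5 CPM in uninjured DMSO and 10.3, 8.58 and 15.9 in injured DMSO. It held 9.10, 15.8 and 14.8 CPM in uninjured AMD3100 and 0, 0.719 and 13.5 in injured AMD3100. The DMSO groups did not overlap, and in injured AMD3100 replicate 3 stood far above replicates 1 and 2. The log2 fold changes with injury were -1.10 and -1.12 (adjusted p = 0.4001 and 0.404). Without injured AMD3100 replicate 3, ddit3 passed the threshold both for injury with AMD3100 and for AMD3100 in injured larvae. The paralogs atf4a and atf4b had values of 0.35 and 0.30, and of -0.45 and -0.36 (adjusted p = 0.528 to 0.639). For atf4b, DMSO libraries held 283, 191 and 266 CPM without injury and 232, 213 and 98.5 with it, and AMD3100 libraries 231, 262 and 214 CPM without injury and 252, 208 and 93.8 with it. Its groups overlapped in both treatments, and replicate 3 was the lowest library in both injured groups. The sensor genes ern1 and eif2ak3 had log2 fold changes of -0.31 and -0.70 in DMSO and -0.90 and -0.94 with AMD3100. Their adjusted p ran from 0.132 to 0.677. With AMD3100 both had injured libraries below uninjured ones. In DMSO so did eif2ak3, at 11.3 to 16.9 against 17.3 to 29.3 CPM, while ern1 overlapped. Replicate 1 of injured AMD3100 held 2 counts of ern1 and 3 of eif2ak3, at or under the floor of 3 counts. The sensor gene atf6 had -0.46 and -0.37 (adjusted p = 0.405 and 0.511).

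**Figure D3:**
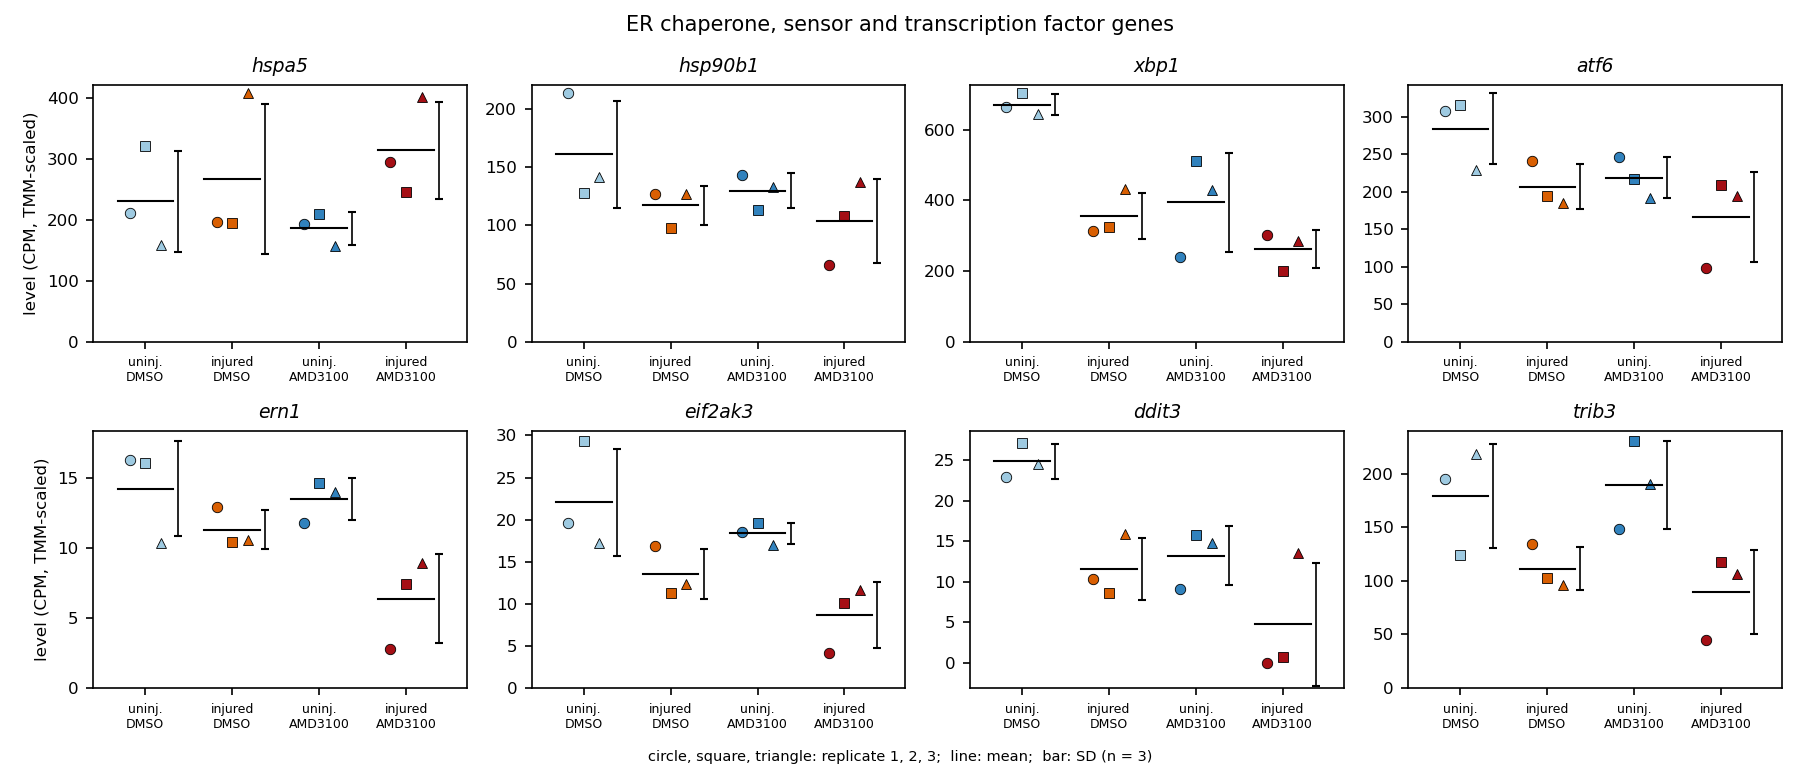
Levels in CPM (linear axis, TMM-scaled) of 2 ER chaperone genes, 3 sensor genes, 2 transcription factor genes and trib3 in each library of the 4 groups, with the mean and SD of 3 replicates. The uninjured DMSO libraries of xbp1 and ddit3 lie above all other libraries; ddit3 in injured AMD3100 ranges from 0 to 13.5 CPM.

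None of the 13 tested ER chaperone and folding genes passed the edgeR test with injury (1 in each treatment at an unadjusted p under 0.05), and neither did any of the 6 tested genes of ER-associated degradation (0 in DMSO and 1 with AMD3100, beside the same 1686 and 1670 of 8453 entries). Median log2 fold changes were 0.11 and 0.25 for the chaperones and 0.17 and 0.25 for degradation genes. The master ER chaperone gene hspa5 (BiP), which also keeps the sensors inactive, held 211, 322 and 158 CPM in uninjured DMSO and 197, 194 and 409 CPM in injured DMSO. It held 192, 210 and 156 CPM in uninjured AMD3100 and 296, 246 and 402 CPM in injured AMD3100. The DMSO groups overlapped and the AMD3100 groups did not (log2 fold changes 0.22 and 0.76, adjusted p = 0.785 and 0.236). The ER Hsp90 gene hsp90b1 (Grp94) held 214, 128 and 142 CPM in uninjured DMSO and 127, 97.8 and 127 in injured DMSO. It held 143, 113 and 133 CPM in uninjured AMD3100 and 65.9, 108 and 137 in injured AMD3100. The injured libraries lay below the uninjured ones in DMSO and overlapped them with AMD3100, and the log2 fold changes were -0.46 and -0.30 (adjusted p = 0.412 and 0.617).

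The lectin chaperone genes calr, calr3a, calr3b and canx, the disulfide isomerase genes pdia3, pdia4 and pdia6, and the secreted factor manf and the exchange factor hyou1 had log2 fold changes between -0.74 and 0.89 with injury in DMSO. With AMD3100 they lay between -0.27 and 0.58. The co-chaperone gene dnajc3a had 0.11 and 0.94 (adjusted p = 0.922 and 0.287) and the folding factor gene creld2 -0.32 and 0.48. Replicate 1 of injured AMD3100 was the lowest of its group for calr3a, canx, pdia3, pdia4, pdia6, manf, hyou1 and creld2. It was the highest for calr and dnajc3a, and lay between the others for calr3b. For hyou1 it held 46.3 CPM against 97.6 and 231 in replicates 2 and 3. In degradation, the channel component gene derl2 held 20.7, 20.5 and 24.2 CPM in uninjured DMSO and 20.2, 20.9 and 18.4 in injured DMSO. It held 10.8, 19.6 and 13.01 CPM in uninjured AMD3100 and 36.4, 24.0 and 21.9 in injured AMD3100. The log2 fold change with injury was 0.85 with AMD3100 (adjusted p = 0.130) and -0.14 in DMSO (adjusted p = 0.844). The other degradation genes herpud1, edem1, sel1l, syvn1 and derl1 had values between -0.17 and 0.49. Not tested were dnajb11, sdf2l1, serpinh1b, dnajb9a and dnajb9b besides ppp1r15a, with 0 to 93 counts each over all 12 libraries; dnajb9a had none.

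**Figure D4:**
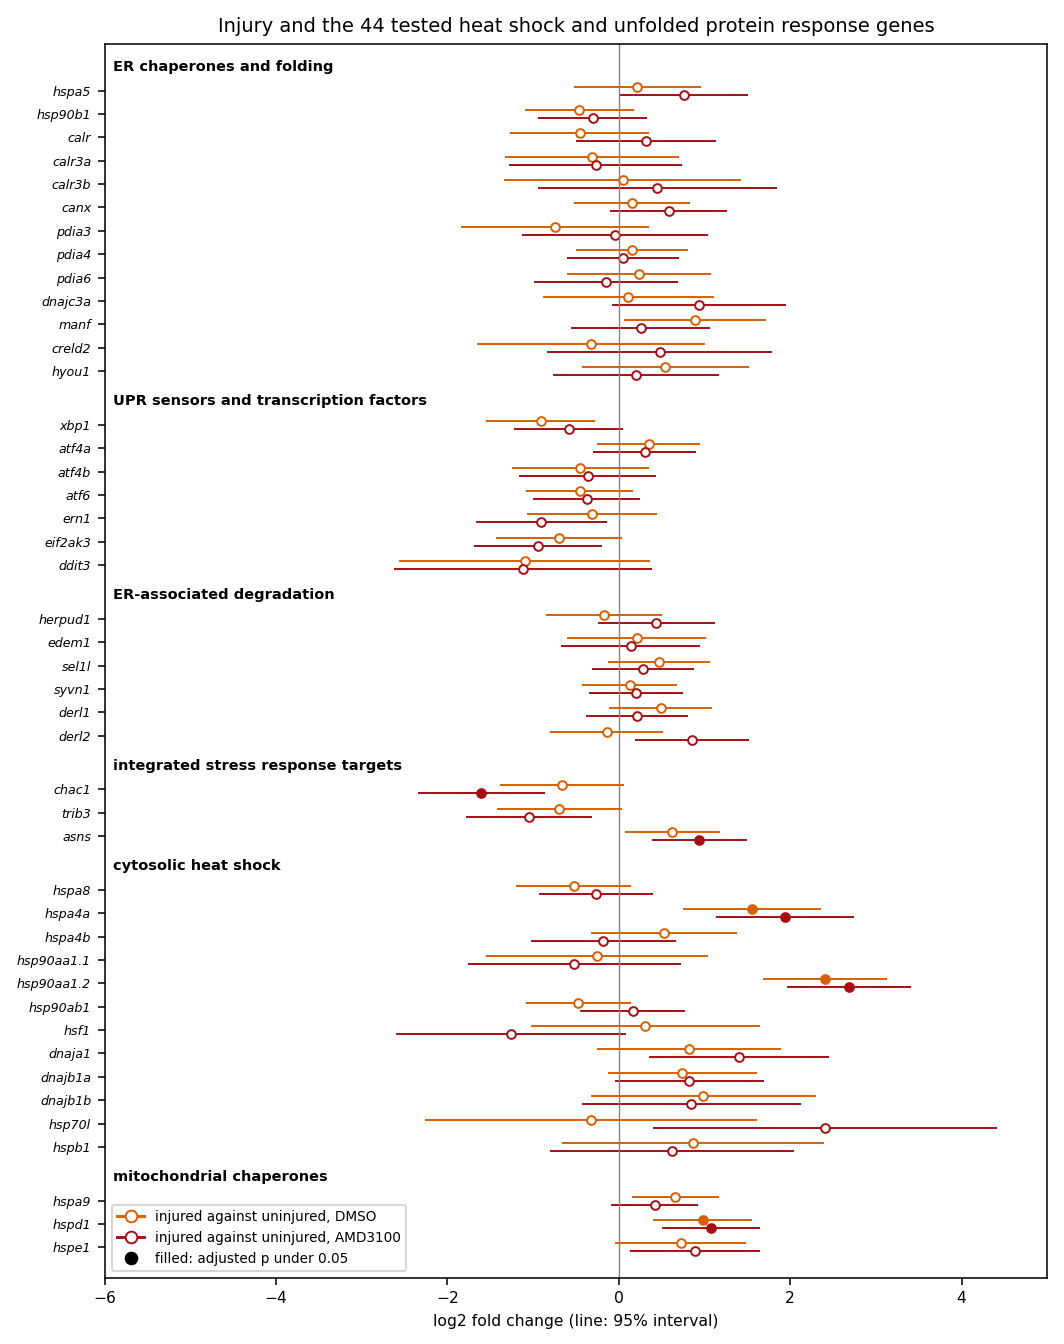
Log2 fold change of injured against uninjured libraries (horizontal axis) with its 95% interval for each of the 44 tested genes, grouped by role, in DMSO (orange) and with AMD3100 (red); filled points have an adjusted p under 0.05. The filled points are hsp90aa1.2, hspa4a and hspd1 in both treatments and chac1 and asns with AMD3100.

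AMD3100 against DMSO gave 0 calls among the 44 genes in injured and in uninjured larvae by edgeR, where 0% and 0.0118% of all 8453 entries were called, and 0 by DESeq2, which called 1 and 19 of all entries. Over all entries, 466 and 433 had an unadjusted p under 0.05. At an unadjusted p under 0.05, 0 of the 44 differed in injured larvae and 2 in uninjured larvae, pdia3 (log2 fold change -1.24, unadjusted p = 0.0291) and xbp1 (-0.77, unadjusted p = 0.0188), both with an adjusted p of 0.959. Without a filter on low counts, calr3b and pdia3 passed the threshold in uninjured larvae. In injured larvae 4 genes lay above and 3 below the DMSO libraries without overlap, where 4.66% and 5.67% of all entries did so. In uninjured larvae 1 lay above and 3 below, where 6.91% and 6.02% did so. The 1 above was chac1 (0.67, SE 0.333, adjusted p = 0.977) and the 3 below were xbp1, ddit3 and derl2. The median log2 fold change of the 44 genes in uninjured larvae was -0.23, beside 0.03 over all entries (-0.00119 with RLE factors). Of the 13 ER chaperone and folding genes 11 had negative values, as did 7 of the 7 sensor and transcription factor genes, with medians of -0.52 and -0.24. The 7 include ern1, atf4a and atf4b, at -0.05, -0.07 and -0.07. Of all 8453 entries, 3984 had negative values. A separate list of 61 tested genes of ER folding, translocation and degradation had 33 positive and 28 negative values (median 0.04). In injured larvae the medians of the 13 ER chaperone and folding genes and the 7 sensor and transcription factor genes were -0.16 and -0.44. The intervals leave room for changes in either direction: the 95% interval of the log2 difference between injured AMD3100 and injured DMSO was -0.94 to 0.37 for hsp90aa1.2, -0.60 to 0.91 for hspa4a and -0.32 to 0.78 for hspd1. For ddit3 it was -2.41 to 0.58. Comparisons of AMD3100 with DMSO share libraries with the injury comparisons.

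The interaction, which asks whether injury acted differently with and without AMD3100, called 0 of the 44 genes and 0% of all entries by edgeR, where 265 entries had an unadjusted p under 0.05, and 0 entries by DESeq2. At an unadjusted p under 0.05 it held 1 of the 44, derl2 (log2 difference 0.99, SE 0.430, unadjusted p = 0.0360, adjusted p = 1.00). For the genes that rose, the 95% interval of the difference was -0.69 to 1.24 for hsp90aa1.2, -0.71 to 1.49 for hspa4a and -0.70 to 0.88 for hspd1.

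**Figure D5:**
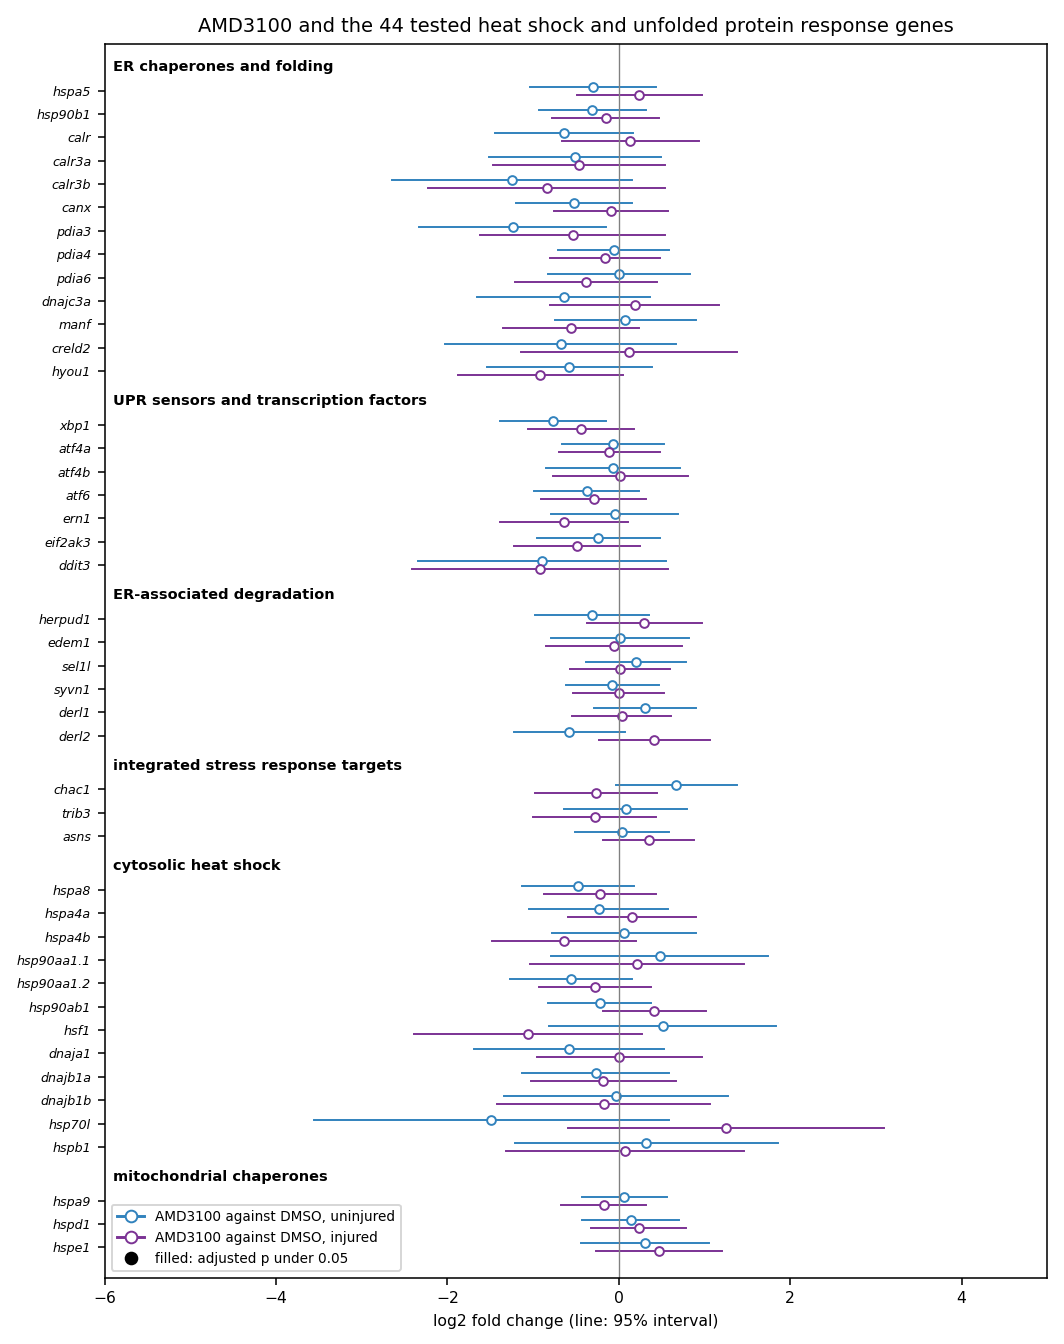
Log2 fold change of AMD3100 against DMSO libraries (horizontal axis) with its 95% interval for each of the 44 tested genes, grouped by role, in uninjured (blue) and injured (purple) larvae. No point is filled, as 0 of the 44 had an adjusted p under 0.05; the intervals are widest for hsp70l.

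Other genes of these pathways, from lists of related chaperones, co-chaperones and stress-response genes, gave between 1 and 4 calls per list and injury comparison, beside 5.19% and 5.42% of all entries. Of 61 tested genes of ER folding, translocation and degradation, 2 rose and 1 fell with injury in DMSO, and 4 rose and 0 fell with AMD3100, with median log2 fold changes of 0.09 and 0.07. The ER thioredoxin gene txndc12 went from 3.76 ± 0.547 to 31.7 ± 1.44 CPM in DMSO (SD, n = 3; log2 fold change 3.10, adjusted p = 0.00195) and from 7.21 ± 4.66 to 44.2 ± 16.4 CPM with AMD3100 (2.60, adjusted p = 0.00331). The segregase gene vcp, which extracts ubiquitinated proteins from the ER membrane, went from 216 ± 19.2 to 592 ± 81.6 CPM in DMSO (1.46, adjusted p = 0.00471) and from 247 ± 25.2 to 613 ± 178 CPM with AMD3100 (1.32, adjusted p = 0.00881). The calls of txndc12 held in every setting and with any library left out; that of vcp with AMD3100 was lost in a fit of its own groups (adjusted p = 0.0770). The ER lectin gene os9, which delivers misfolded glycoproteins to degradation, fell by 1.44 in DMSO on the log2 scale (adjusted p = 0.0125; ended by dropping replicate 2 of uninjured DMSO, or 2 or 3 of injured DMSO, adjusted p = 0.0598 to 0.0656). With AMD3100 the prolyl isomerase gene fkbp2 rose by 1.60 (adjusted p = 0.0260) and the translocation gene sec63 by 0.94 (adjusted p = 0.0452). Without injured AMD3100 replicate 1 these values were 0.95 and 0.88 (adjusted p = 0.0509 and 0.0541), and both calls were also lost without any uninjured AMD3100 replicate. That of sec63 was kept with only 3 of the 12 libraries left out in turn, and was lost without a filter, with the replicate block and after thinning (adjusted p = 0.0610 to 0.0911). In a fit of the AMD3100 groups alone, all calls of the related lists in that comparison but txndc12 were lost.

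Of 45 tested cytosolic chaperones and co-chaperones, 1 rose in DMSO and 2 with AMD3100, and 0 fell (medians 0.22 and 0.16). The Hsp90 co-chaperone gene ptges3b (p23) went from 33.7 ± 3.80 to 71.1 ± 2.56 CPM in DMSO (SD, n = 3; log2 fold change 1.08, adjusted p = 0.0233) and from 28.5 ± 1.91 to 71.8 ± 19.4 CPM with AMD3100 (1.35, adjusted p = 0.00715). The DMSO call was lost without any library of the DMSO groups (adjusted p = 0.0505 to 0.0997) and after thinning. The vesicle Hsp40 gene dnajc5ab rose by 1.45 with AMD3100 (adjusted p = 0.0161; lost without uninjured AMD3100 replicates 2 or 3). Of 32 tested genes of the integrated stress response, 1 rose and 1 fell in DMSO, and 0 rose and 1 fell with AMD3100 (medians -0.12 and 0.02). The tryptophanyl-tRNA synthetase gene wars1 rose in DMSO by 1.33 (adjusted p = 0.0313; lost without any library of the DMSO groups or uninjured AMD3100 replicate 2, adjusted p up to 0.140). The stress-induced mTORC1 inhibitor gene sesn1 fell by 2.76 in DMSO (adjusted p = 0.00350) and by 1.88 with AMD3100 (adjusted p = 0.0255). Its AMD3100 call was lost without uninjured or injured AMD3100 replicates 2 or 3 (adjusted p = 0.0675 to 0.122), and both calls were lost after thinning.

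Of 15 tested mitochondrial chaperones and proteases, 1 rose and 1 fell in DMSO and 1 rose with AMD3100 (medians 0.31 and 0.05). The 15 leave out genes whose symbol has several entries. With such entries taken in, the medians were 0.40 and 0.07. The inner-membrane scaffold gene phb (prohibitin) rose by 0.90 in DMSO (adjusted p = 0.0433) and by 1.06 with AMD3100 (adjusted p = 0.0198). The DMSO call was lost with RLE factors, without a filter, with the replicate block and after thinning (adjusted p up to 0.188). It was also lost without any library of the DMSO groups or any uninjured AMD3100 replicate, and the AMD3100 call without any uninjured AMD3100 replicate (adjusted p up to 0.152 and 0.100). The disaggregase gene clpb fell by 3.33 in DMSO (adjusted p = 0.0377), where the uninjured libraries ranged from 5.86 to 50.6 CPM and the injured ones from 1.59 to 3.98; with single libraries left out its value lay between -4.39 and -1.98. Dropping replicate 1 or 3 of uninjured DMSO, or any 1 of injured DMSO, ended the call (adjusted p up to 0.231).

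Immediate early genes are known to rise when tissue is dissociated. The summed level of 20 such genes ranged from 3110 to 4452 CPM in DMSO without injury and 3154 to 3611 with it, and from 2961 to 4038 CPM in AMD3100 without injury and 1730 to 3069 with it. Of 16 tested, 0 were called in DMSO and 1 rose and 1 fell with AMD3100 (median log2 fold changes -0.17 and -0.50). The sum hides single genes that went both ways. For jun, levels were 19.6 to 30.8 CPM in DMSO without injury and 39.9 to 59.8 with it. In AMD3100 they were 22.4 to 34.0 CPM without injury and 37.85 to 56.6 with it. The more abundant atf3 had means of 1074 CPM in DMSO without injury and 723 with it. Its means with AMD3100 were 579 and 409 CPM. The part of dissociation in the results was not tested.

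The member counts moved with single libraries. In DMSO the count of 3 went to 1 without uninjured DMSO replicate 3 or any injured DMSO replicate. With AMD3100 the count of 5 went to 3 without uninjured AMD3100 replicate 1 or injured AMD3100 replicate 2, to 2 without uninjured AMD3100 replicate 3 and to 1 without uninjured AMD3100 replicate 2. Without injured AMD3100 replicate 1, the library that stands apart, it was 5: the log2 fold changes were 2.80 for hsp90aa1.2, 1.62 for hspa4a, 1.101 for hspd1 and -1.45 for chac1, asns was lost (0.82, adjusted p = 0.0596) and dnajb1a was gained.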

How the data were processed

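Adapted CEL-seq libraries, which count transcript ends, were made from sorted cells and pooled after barcoding, per the labels' protocols. The deposited values are raw read counts per gene with no normalization. The submitters' name for the count table marks them as spliced, and what that covers is unknown here. BWA, build GRCz11 and DESeq2 1.38 are named in the submitters' processing notes; their roles, and whether molecular identifiers were used, are unknown from the sources used here. Of 31351 entries, 88 are ERCC spike-ins and 5877 join overlapping genes. Summed over members, joint entries held 68 reads beside 891544 in the members' own. In this sum, an entry shared by members counts for each of them. RefSeq's GRCz12tu annotation served only to find neighbouring genes; coordinates and sequences were not used here.

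Tests used edgeR 4.0.16 (R 4.3.3) on the counts of 31263 entries: filterByExpr by group (minimum count 10, minimum total 15), TMM factors, and a quasi-likelihood fit with 1 coefficient per group over all 12 libraries (common biological coefficient of variation 0.38). P-values are Benjamini-Hochberg adjusted over 8453 entries, with a threshold of 0.05, for 5 contrasts. CPM are divided by TMM-scaled totals and not by length. Each SE of a log2 fold change was worked back from the test, as its absolute value over the square root of the quasi-likelihood F. The intervals of log2 fold changes are built from these SEs with t quantiles, and are approximate. Floors are 3 counts and intervals 95%; binomial ones are exact Clopper-Pearson and, for reads that may not be independent molecules, cover counting error only. Shares were compared by exact permutation, only for hsp90aa1.2 and hspa4a, which were called for injury on the same libraries.

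Alternatives were DESeq2 1.42.0, RLE factors, no filter, a fit of the contrast's groups alone, a replicate block, thinning to the shallowest library, dropping hemoglobin genes and those of the mitochondrial genome, and leaving out each library. Values in every library are given for members past the threshold in any contrast and for hspa5, hsp90b1, xbp1, hspa8, hsp90ab1, hsp70l, ddit3 and atf4b, plus derl2 and single values of dnajb1a and hyou1, chosen after their values were seen; of the other lists, up to 4 called genes per contrast. Members and lists were chosen with earlier results of these data known.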

Additional observations from a re-analysis of the deposited data

Results flagged for a closer look

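The ER degradation gene derl2 was singled out because AMD3100 went with opposite shifts: all 3 injured AMD3100 libraries lay above all 3 injured DMSO libraries (log2 fold change 0.41, adjusted p = 0.951), and all 3 uninjured AMD3100 libraries lay below all 3 uninjured DMSO libraries (-0.58, adjusted p = 0.991). The difference itself, tested as the interaction, was 0.99 (SE 0.430, unadjusted p = 0.0360, adjusted p = 1.00) and did not pass the threshold. Taken alone, the shift above in injured larvae was found for 4.66% of all entries, and the shift below in uninjured larvae for 6.02%. How many of all entries had both was not counted, so derl2 cannot be called unusual from these values.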

How the results depend on the processing

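The choices that could change the calls were tried 1 at a time. Of the called fold changes, 0 changed sign, which says little, as these genes were called on the same libraries. The median over all entries changed sign with RLE factors or DESeq2 for AMD3100 in uninjured larvae (0.0291 to -0.00119 and -0.000662). With DESeq2, all tested entries gave 723 calls for injury in DMSO and 731 with AMD3100, 1 for AMD3100 in injured larvae and 19 in uninjured larvae. Without a filter on low counts these counts were 701, 714, 105 and 145, the interaction gave 68, and 2 members passed for AMD3100 in uninjured larvae. In a fit of each contrast's groups alone, injury in DMSO gave 690 entries and 5 members, injury with AMD3100 gave 132 and 2, and AMD3100 in uninjured larvae gave 0 entries. Thinned to the shallowest library, the injury comparisons gave 208 entries with 1 member in DMSO and 259 with 3 members with AMD3100, and AMD3100 in uninjured larvae gave 0. Leaving out single libraries moved the entries called between 170 and 697 for injury in DMSO, 125 and 601 with AMD3100, 0 and 74 for AMD3100 in injured larvae, 0 and 2 in uninjured larvae, and 0 and 2 for the interaction. The members called ranged from 1 to 3, 1 to 6 and 0 to 1 in the first 3 of these, the last being ddit3 without injured AMD3100 replicate 3, and stayed at 0 in the others. With a replicate block, 353 and 325 entries and 2 and 4 members were called in the injury comparisons. Correlations showed no pairing of libraries by replicate number: 1 of 18 same-numbered pairs had a correlation over 0.1 (-0.121 to 0.153), as did 2 of 36 other pairs (-0.174 to 0.18). With 3 libraries per group, these values cannot exclude a shared origin of same-numbered replicates. Of 8 member calls, 2 were kept in all 7 settings and with any of 12 libraries left out, both of hsp90aa1.2. The causes of these shifts were not tested. Among the genes with libraries near the floor of 3 counts were hsp70l, ddit3, creld2, hsf1, ern1 and eif2ak3. The part of depth in these values was not tested. For ddit3, replicate 2 of injured AMD3100 had 5 counts in a total of 5730412. Replicate 3 of injured DMSO had 99 in a total of 5770543.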
